A study of Homo sapiens with 8 samples.

Results

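DEAD and DEAH box RNA helicases were followed through treatment of A549 cells with indisulam, with SPHINX31 and with both compounds. The members are the 48 DDX, DHX and EIF4A genes of a fixed list of symbols, matched to Ensembl identifiers with GENCODE on GRCh38. They are 48 of the 60624 genes listed in the count data, all 48 are protein coding, and all 48 were among the 18661 genes that passed the filter on low counts. The rule that lists them uses no measured value, but the members were chosen with earlier results of these data known.

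A549 is an established lung adenocarcinoma cell line. The 4 groups were untreated cells, cells given indisulam, cells given SPHINX31, and cells given both (combination), with 2 libraries each. Indisulam brings the splicing factor RBM39 to the DCAF15 ubiquitin ligase for degradation, and SPHINX31 inhibits SRPK1, a kinase of serine and arginine rich splicing factors. By the study's methods, SPHINX31 was used at 5 μM and indisulam at 0.5 μM over 24 h in these cells, whereas the protocol in the labels gives 2 μM indisulam and 18 h, which the methods give for a pancreatic cancer line, so that dose and time are uncertain. The series is described as technical duplicates, so the p-values below measure the spread between libraries and not between separate treatments.

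The libraries held between 51727369 and 63186989 counts on genes. Replicates differed by more than counting error, with a chi-square per degree of freedom of 6.6 to 10.7 within a group. The epithelial and A549 markers were high, with KRT8 at 3514 to 4019 CPM (counts scaled to library size) and ALDH1A1 at 4164 to 4479 CPM. SFTPB, a gene of alveolar type II cells, had 0 counts in every library, and the blood marker PTPRC had at most 3. Some markers were above 0 where the line should lack them. CDKN2A, which is deleted in this line, was at 2.63 to 3.68 CPM, COL1A1 of fibroblasts at 3.27 to 4.58 CPM and PECAM1 of endothelium at 1.49 to 2.39 CPM. Their part in the results was not tested. RBM39 RNA rose with indisulam (log2 fold change 1.22, SE 0.0553, adjusted p = 5.41e-09), and SRPK1 RNA fell by 0.33 on the log2 scale (SE 0.0555, adjusted p = 0.000342).

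DEAD and DEAH box proteins use ATP to unwind or remodel RNA and to strip proteins from it. They share a helicase core of paired RecA-like domains, and the names DEAD and DEAH spell the residues of the Walker B motif that takes part in ATP hydrolysis. DEAD box enzymes pry apart short duplexes in place, whereas many DEAH box enzymes pull on single-stranded RNA. The spliceosome, the nuclear pore, the nucleolus, the initiating ribosome and the decay machinery each use their own members, often switched on by a partner protein with a G-patch or a MIF4G domain.

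The coding bases of this motif are shown for some of the genes whose counts changed most and for 3 close paralog pairs, because they show the feature that names the family and how far paralogs share sequence that reads could map to. Each stretch of 30 bases lies in 1 coding exon, is written 5′ to 3′ on the coding strand of GRCh38, and has the codons of the box in capitals.
DHX15 (chr4:24556314-24556343, minus strand): ataattcttGATGAGGCTCATgagaggaca
DHX33 (chr17:5462397-5462426, minus strand): gtcattttgGATGAAGCTCACgaacggact
DHX35 (chr20:38992360-38992389, plus strand): atcatgctgGATGAAGCCCACgagaggacc
DHX9 (chr1:182867008-182867037, plus strand): gtaattgtaGATGAAATACATgaaagagat
DDX23 (chr12:48833415-48833444, minus strand): gtggttctgGATGAGGCAGATaggatgatt
EIF4A1 (chr17:7577076-7577105, plus strand): tttgtactgGATGAAGCTGACgaaatgtta
EIF4A2 (chr3:186786184-186786213, plus strand): tttgttttgGATGAAGCAGATgaaatgttg
DDX19A (chr16:70366192-70366221, plus strand): tttgttctgGATGAGGCTGATgtcatgata
DDX19B (chr16:70329399-70329428, plus strand): tttgttctgGATGAGGCTGATgtcatgata
DDX39A (chr19:14410999-14411028, minus strand): tttgtgctgGACGAGTGTGACaagatgctg
DDX39B (chr6:31536510-31536539, minus strand): tttattttgGATGAATGTGATaagatgctt

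The search took in-frame codons of the DEAD, DEAH, DECD, DEVD, DEVH or DEIH box, on the coding strand only, directly after codons for a pair of hydrophobic residues. By this search 27 members held the DEAD form and 9 the DEAH form. DDX39A and DDX39B held the DECD form, DDX21 and DDX50 the DEVD form, DHX9 and DHX36 the DEIH form, and DHX29, DHX30, DHX34 and DHX57 the DEVH form. The 2 members without a match were DDX52 and DHX32. In all, 46 members had a match, compared with 168 of 20046 coding sequences in the annotation (0.838%). The family is named for this box and the 46 are part of the 168, so this difference was set by the list. The stretches of DDX19A and DDX19B were identical in 30 of 30 bases, those of EIF4A1 and EIF4A2 in 25, and those of DDX39A and DDX39B in 23. Over whole transcripts, 12.33% of the windows of 150 bases of DDX19A, and 10.94% of those of DDX19B, occurred exactly in the other gene, compared with 0% for the DDX39, EIF4A, DDX5 with DDX17, and DDX21 with DDX50 pairs.

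Some members overlap other genes, which limits what their counts measure. In GENCODE 44, DDX47 shared 36.5% of its exon bases with APOLD1 on the same strand, EIF4A1 shared 47.4%, mainly with the read-through gene SENP3-EIF4A1, and DDX39B shared 30.8%, mainly with ATP6V1G2-DDX39B. DDX19A and DDX19B shared 23.9% and 16.0% with an unnamed read-through gene that had 0 counts in every library. These genes were the 5 members that shared at least 15% of their exon bases, a limit set after their values were seen. EIF4A1 had only 113 to 268 counts per library and DDX47 only 13 to 126, compared with 11343 to 18330 for EIF4A2. Pseudogenes of EIF4A1 held 733 counts over all libraries, and EIF4A1P10 alone had 55 to 88 per library. How shared bases were counted is not given in the sources used here. The part of shared bases and of pseudogenes in these low counts was not tested. The counts of members are therefore also given without these 5 genes.

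In untreated cells the other 43 members were compared per length, as CPM per kilobase of exon sequence (CPM/kb). DDX5, a coregulator of transcription and splicing, stood highest at 61.1 and 61.7 CPM/kb in the untreated libraries, followed by DHX9 at 57.2 and 59.8 CPM/kb and the nucleolar helicase DDX21 at 44.3 and 47.1 CPM/kb. These 3 genes did not overlap each other. The median member was at 13.0 CPM/kb. The lowest were DHX35 at 2.11 and 2.16 CPM/kb, DDX20 at 2.16 and 2.17 CPM/kb, and DDX10 at 2.22 and 2.36 CPM/kb. DHX35 and DDX20 lay too close together to be ordered. Neighbours in the middle of the order often overlapped, as DHX16, DHX40 and DHX33 did between 12.2 and 13.2 CPM/kb. Exon length was taken over all annotated transcripts, so a gene with long unused exons is listed too low.

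**Figure D1:**
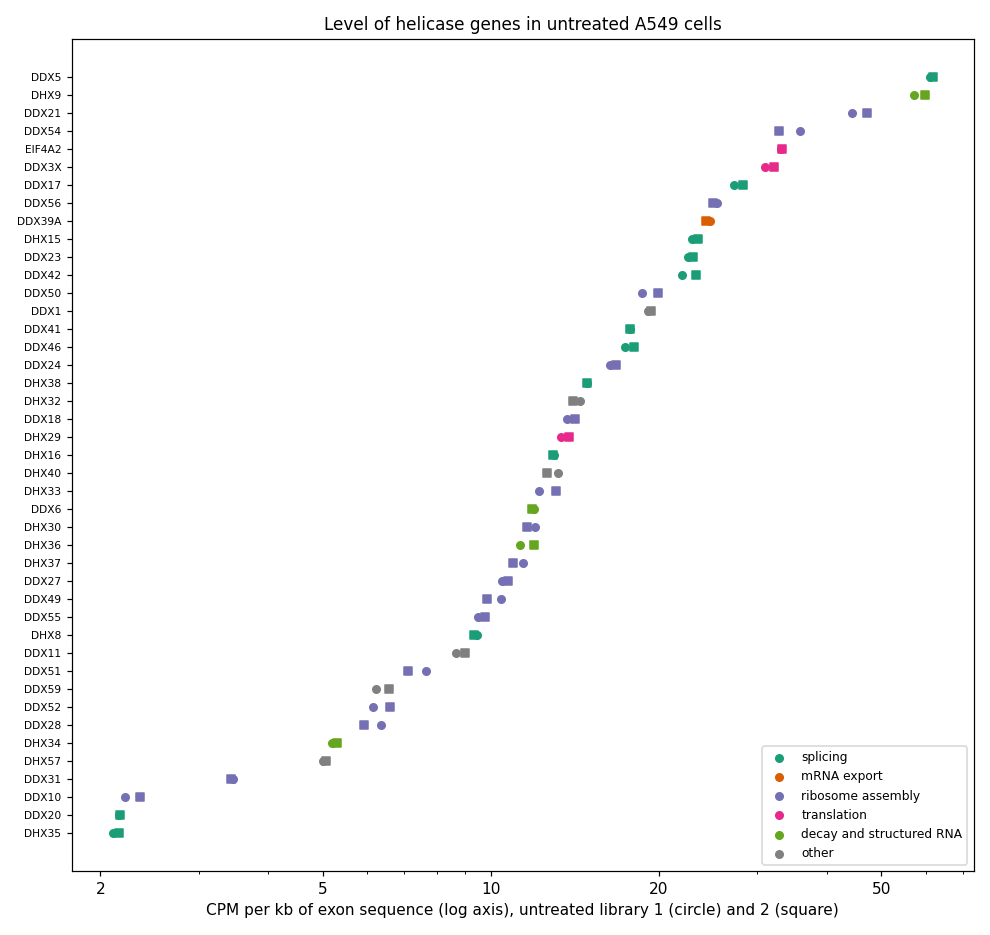
Level of the 43 helicase genes without large exon overlaps in the untreated libraries, in CPM per kilobase of exon sequence on a log axis, with circles for library 1, squares for library 2 and colours for the role. The levels run from 2.13 CPM/kb on average for DHX35 to 61.4 for DDX5, and the libraries of a gene lie close together beside the spread between genes.

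With indisulam, helicase genes were called in both directions. Of the 48 members, 16 rose (33.3%) and 8 fell (16.7%) compared with untreated cells at an adjusted p under 0.05, whereas 24 did not pass. Over all tested genes 20.1% were called higher and 23.5% lower. The median log2 fold change of the members was 0.05, compared with -0.00 over all tested genes, and the median absolute change was 0.16 compared with 0.26. Without the 5 genes with large exon overlaps, 14 rose and 7 fell. Scaling by total counts alone gave 19 higher and 6 lower. Of the 24 calls, 17 held in all 17 alternatives, and those of DDX1, DDX6, DDX11, DDX59, DHX29, DHX36 and DHX40 did not. CPM is relative to the library, so a change in the RNA of every gene per cell cannot be told apart from none.

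Among the 13 splicing helicases, 4 rose (30.8%), 1 fell (7.69%) and 8 did not pass. The shares over all tested genes were 20.1% higher and 23.5% lower. DHX15, which releases spliced lariats and dismantles spent spliceosomes, was at 187 and 192 CPM in untreated cells, 309 and 298 with indisulam, 155 and 179 with SPHINX31, and 277 and 279 with the combination. Both groups with indisulam lay above both groups without it. The change with indisulam was 1.60-fold (log2 fold change 0.68, SE 0.0619, adjusted p = 1.75e-06). DDX23, which helps the spliceosome to exchange small nuclear RNAs at the donor splice site, was at 167 and 170 CPM in untreated cells and 231 and 224 CPM with indisulam. It was at 158 and 166 CPM with SPHINX31 and 240 and 231 CPM with the combination, again with no overlap between cells with and without indisulam, and the log2 fold change with indisulam was 0.43 (SE 0.0489, adjusted p = 1.12e-05).

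DHX35, a helicase found with catalytic spliceosomes, was the splicing member that fell. Its levels were 10.5 and 10.8 CPM in untreated cells, 7.51 and 7.48 with indisulam, 12 and 11.8 with SPHINX31, and 8.33 and 7.70 with the combination. All 4 libraries with indisulam were below all 4 without it, and the fall was 1.42-fold with indisulam (log2 fold change -0.51, SE 0.0813, adjusted p = 0.000225). DDX20, a subunit of the SMN complex that loads Sm proteins on small nuclear RNAs, rose by a log2 fold change of 0.37 (adjusted p = 0.00519). The paralogs DDX17 and DDX5, which act in transcription and splicing, were called differently. DDX17 was at 273 and 283 CPM in untreated cells and 384 and 338 CPM with indisulam (log2 fold change 0.38, adjusted p = 0.0017), while DDX5 was at 568 and 575 CPM and 620 and 561 CPM and overlapped (log2 fold change 0.05, adjusted p = 0.595). The difference between the paralogs was not tested. The spliceosomal helicases of the catalytic steps had log2 fold changes near 0, at -0.01 for DHX8, -0.06 for DHX16 and -0.06 for DHX38. DDX46 had 0.18, DDX41 0.12, DDX42 0.02 and DDX39B -0.27, and none of these passed the test.

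The 3 members listed under export all passed, 2 higher and 1 lower. Among all tested genes 20.1% were called higher and 23.5% lower. This count depends on the list, since DDX39B was placed under splicing and did not pass. DDX19A and DDX19B are also among the 5 genes with large exon overlaps. DDX19A and DDX19B, close paralogs that free messenger RNA of proteins at the nuclear pore, moved apart. DDX19A was at 13.7 and 15.4 CPM in untreated cells, 20.2 and 19.3 with indisulam, 12.3 and 12.7 with SPHINX31, and 22.1 and 20.9 with the combination. DDX19B was at 13.5 and 14.3 CPM in untreated cells, 9.37 and 8.77 with indisulam, 15.4 and 14.9 with SPHINX31, and 9.88 and 9.80 with the combination. The genes overlapped in untreated cells, and DDX19B lay above DDX19A with SPHINX31 alone. In both groups with indisulam DDX19A lay clearly above DDX19B. The log2 fold change with indisulam was 0.44 for DDX19A (SE 0.0755, adjusted p = 0.000375) and -0.62 for DDX19B (SE 0.0768, adjusted p = 2.73e-05). Since the genes share sequence and a read-through gene spans both, how reads were divided between them is uncertain. DDX39A, an export factor, rose by a log2 fold change of 0.24 (adjusted p = 0.00271), from 95.4 and 93.9 CPM to 107 and 116 CPM. Its paralog DDX39B, which acts in splicing and export, was at 42.0 and 44.9 CPM in untreated cells and 40.1 and 32.1 CPM with indisulam, with no call (adjusted p = 0.156).

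Of the 18 ribosome assembly helicases, 5 rose (27.8%), 2 fell (11.1%) and 11 did not pass. These shares stand beside 20.1% higher and 23.5% lower over all tested genes. DHX33, a nucleolar helicase linked to transcription of ribosomal RNA, showed the strongest fall of any member. It was at 70.7 and 75.7 CPM in untreated cells, 33.8 and 31.7 with indisulam, 71.3 and 74.9 with SPHINX31, and 27.3 and 27.2 with the combination. The libraries with indisulam lay far below the others, and SPHINX31 alone left the level within the untreated range. The fall with indisulam was 2.23-fold (log2 fold change -1.16, SE 0.0595, adjusted p = 1.21e-08). DDX52, which acts on the precursor of the small subunit, was at 58.7 and 62.9 CPM in untreated cells, 45.2 and 44.5 with indisulam, 59.8 and 62.9 with SPHINX31, and 38.5 and 38.7 with the combination. It followed the same order as DHX33, with a smaller change (log2 fold change -0.44 with indisulam, SE 0.0564, adjusted p = 3.61e-05).

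DDX31, a nucleolar helicase of the large subunit, was at 19.1 and 19.0 CPM in untreated cells, 26.8 and 26.3 with indisulam, 19.2 and 19.3 with SPHINX31, and 27.5 and 28.1 with the combination. The groups with and without indisulam were well separated, and the log2 fold change with indisulam was 0.48 (SE 0.0604, adjusted p = 3.12e-05). DDX18 rose by 0.36, DDX10 by 0.35 and DDX24 by 0.29 on the log2 scale. DDX47 was at 0.599 and 0.755 CPM in untreated cells, 1.99 and 1.98 with indisulam, 0.240 and 0.752 with SPHINX31, and 2.2 and 1.94 with the combination. Its rise had the largest log2 fold change of any member (1.55, SE 0.281, adjusted p = 0.000591) but rests on few counts, and APOLD1, which shares its exons, fell by 0.44 on the log2 scale (adjusted p = 0.0188). The members that did not pass were DDX54, DDX27, DDX51, DDX49, DDX28, DDX55, DDX21, DDX50, DHX30, DHX37 and DDX56, with log2 fold changes from 0.16 for DDX54 to -0.12 for DDX56. The paralogs DDX21 and DDX50 overlapped with the untreated libraries, DDX21 at 411 and 437 CPM in untreated cells and 421 and 397 with indisulam, and DDX50 at 50.1 and 53.4 CPM and 50.2 and 49.6.

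Translation and decay helicases again held members of both signs. EIF4A2, one of the eIF4A proteins that unwind messenger RNA leaders for initiation, was at 203 and 203 CPM in untreated cells, 315 and 294 with indisulam, 209 and 214 with SPHINX31, and 302 and 317 with the combination. Every library with indisulam was above every library without it, and the rise was 1.5-fold (log2 fold change 0.59, SE 0.0506, adjusted p = 1.11e-06). EIF4A1, its paralog, was at 3.38 and 3.20 CPM in untreated cells and 4.54 and 3.51 CPM with indisulam, with no call (adjusted p = 0.272) and with the limits of its shared exons. DHX29, which helps the small subunit to scan structured leaders, was at 65.3 and 67.6 CPM in untreated cells, 60.0 and 56.2 with indisulam, 60.5 and 66.9 with SPHINX31, and 51.0 and 52.4 with the combination. The indisulam libraries lay below the untreated ones, and it fell by 0.19 on the log2 scale (SE 0.0608, adjusted p = 0.0198). That call was lost without either untreated library or without indisulam library 2, where the log2 fold change was -0.14. DDX3X had a log2 fold change of -0.01 and did not pass.

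DHX9, which unwinds double-stranded RNA and RNA hybridised to DNA, was at 337 and 353 CPM in untreated cells, 560 and 542 with indisulam, 266 and 307 with SPHINX31, and 500 and 517 with the combination. The libraries with indisulam were the highest and those with SPHINX31 alone the lowest, without overlap between any groups. The rise with indisulam was 1.60-fold (log2 fold change 0.68, SE 0.0618, adjusted p = 1.79e-06). DDX6, a decapping cofactor of P-bodies, rose by 0.16, and DHX36, a G-quadruplex resolvase, fell by 0.14 on the log2 scale with an adjusted p of 0.0498, close to the threshold. DHX34, a factor of nonsense-mediated decay, had a log2 fold change of 0.04 and did not pass. Of the 6 members with other roles, 2 rose (33.3%), 2 fell (33.3%) and 2 did not pass. Over all tested genes 20.1% were called higher and 23.5% lower. DDX11, a DNA helicase of sister chromatid cohesion, rose by 0.26 (adjusted p = 0.0137) and DHX40 by 0.14 (adjusted p = 0.0460). DDX1, a subunit of the tRNA ligase complex, fell by 0.19 (adjusted p = 0.00661) and DDX59 by 0.16 (adjusted p = 0.0477). These calls, and those of DDX6 and DHX36, did not hold in all 17 alternatives. DHX32 and DHX57 did not pass, with log2 fold changes of 0.02 and 0.13.

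**Figure D2:**
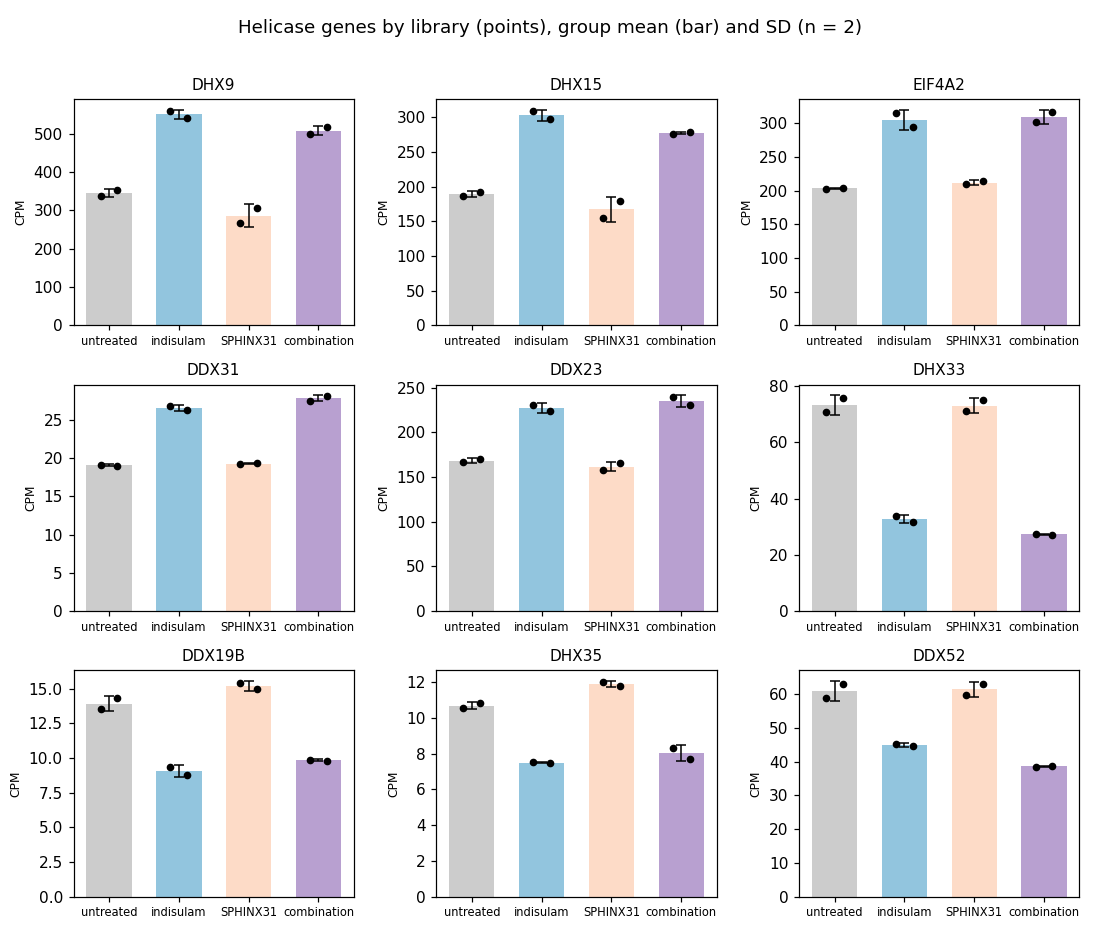
CPM of 9 helicase genes in each library (points), with the group mean (bar from 0) and SD (n = 2), for untreated, indisulam, SPHINX31 and combination cells. For DHX9, DHX15, EIF4A2, DDX31 and DDX23 both groups with indisulam lie above those without it, and for DHX33, DDX19B, DHX35 and DDX52 they lie below.

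SPHINX31 alone moved few members. DDX59 rose and DHX9 fell, and 46 of the 48 members did not pass. The number of calls was unstable, with 9 under a correction for GC content, 7 with every gene of at least 1 count kept, and 8 under a replicate block with the indisulam numbers exchanged. Over all tested genes 4.94% were called higher and 3.67% lower. The members' median log2 fold change was -0.00, compared with -0.01 over all tested genes. DDX59 was at 27.5 and 28.9 CPM in untreated cells and 33.3 and 34.2 CPM with SPHINX31, with no overlap (log2 fold change 0.26, SE 0.0599, adjusted p = 0.0172). DHX9 fell by 0.27 on the log2 scale with the levels given above (SE 0.0618, adjusted p = 0.0169).

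Both calls depended on single libraries. Both were lost without either untreated library, or without SPHINX31 library 1. In those fits the adjusted p of DHX9 was between 0.0683 and 0.143, and its log2 fold change was -0.17 without SPHINX31 library 1. DDX59 was also not called without SPHINX31 library 2 (adjusted p = 0.0645), where 5 members passed. Leaving out either indisulam library gave 5 calls and leaving out either combination library 4. The split changed with the scaling. Total counts alone gave 4 higher, with DDX27, DHX32 and DDX10 added, and 1 lower, while RLE size factors gave 1 higher and 2 lower, with DDX11 added. DDX27 (0.18, adjusted p = 0.0542), DHX32 (0.18, adjusted p = 0.0514), DDX10 (0.20, adjusted p = 0.0529) and DDX11 (-0.25, adjusted p = 0.0556) were close to the threshold in the chosen fit.

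With the combination, 17 members rose and 10 fell compared with untreated cells, and 21 did not pass. Over all tested genes 23.8% were called higher and 26.3% lower. The members' median log2 fold change was 0.06, compared with 0.00 over all tested genes. Scaling by total counts alone moved the split to 20 higher and 7 lower. Without the 5 genes with large exon overlaps, 15 rose and 9 fell. This comparison shares the untreated libraries with the comparison of indisulam alone, so both sets of values are given side by side only.

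DHX33 fell 2.69-fold with the combination (log2 fold change -1.43, SE 0.0602, adjusted p = 1.32e-09), beside -1.16 with indisulam. DDX52 fell by 0.66 (adjusted p = 7.21e-07) beside 0.44, and DHX29 fell by 0.36 (adjusted p = 0.000258) beside 0.19, on the log2 scale. DDX19B and DHX35 had log2 fold changes of -0.50 and -0.41. EIF4A2 rose by 0.61 (adjusted p = 4.94e-07), DDX19A by 0.56, DHX9 by 0.56, DHX15 by 0.55 and DDX31 by 0.54. DDX47 had 1.61, with the limits given above. Splicing members that rose were DHX15, DDX23, DDX20, DDX17 and DDX46, and the 1 that fell was DHX35. Ribosome assembly members divided into 7 that rose (38.9%), 4 that fell (22.2%) and 7 that did not pass. The shares over all tested genes were 23.8% higher and 26.3% lower. DDX46, DDX27, DDX54, DDX50 and DDX56 passed with the combination and not with indisulam alone, and DDX11 and DHX40 passed with indisulam alone, but none of these 7 genes passed in the direct comparison of the combination with indisulam.

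**Figure D3:**
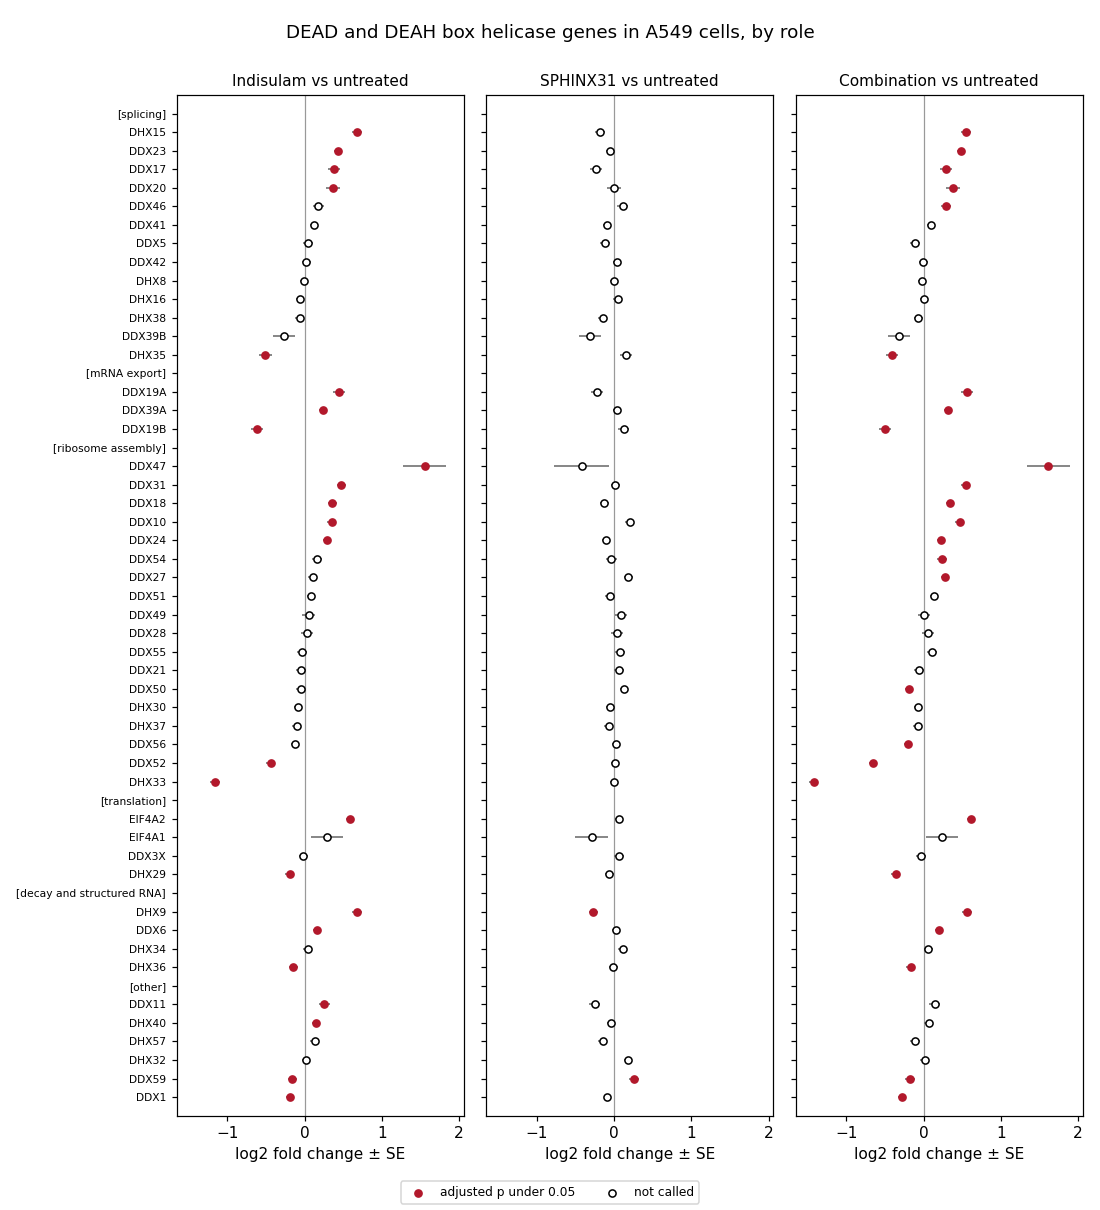
Log2 fold change and SE of the 48 helicase genes against untreated cells for indisulam, SPHINX31 and the combination, ordered by role, with filled points for an adjusted p under 0.05. Filled points number 24, 2 and 27 in the 3 panels, and DHX33 and DDX47 lie farthest from 0 with indisulam and with the combination.

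Adding SPHINX31 to indisulam lowered 3 members, DHX33, DHX57 and DDX52, and none was called higher, by edgeR's quasi-likelihood test as by DESeq2. At an unadjusted p under 0.05 there were 7 of the 48 members in either direction, compared with 4145 of the 18661 tested genes. Over all tested genes 3.17% were called higher and 4.32% lower. The members' median log2 fold change was -0.01, compared with 0.00 over all tested genes. DHX33 fell by 0.27 (SE 0.0615, adjusted p = 0.0193) and DDX52 by 0.22 (SE 0.0574, adjusted p = 0.0355) on the log2 scale, with the levels given above. DHX57 was at 44.9 and 43.0 CPM with indisulam and 38.5 and 36.0 CPM with the combination, without overlap (log2 fold change -0.24, SE 0.0599, adjusted p = 0.0272).

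SPHINX31 alone, which shares no library with this comparison, gave log2 fold changes of -0.00 for DHX33, 0.01 for DDX52 and -0.15 for DHX57, none of which passed. All 3 calls were lost without indisulam library 1, or without either combination library. Leaving out indisulam library 2 left 2 calls and leaving out either untreated library left 1. With total counts alone DHX33 was lower, DDX27 was higher, and DDX52 and DHX57 did not pass (adjusted p = 0.0878 and 0.0667), and their adjusted p otherwise ran from 0.00997 to 0.165 and from 0.0114 to 0.194 over the alternatives.

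Indisulam could be followed a second time in cells that also had SPHINX31, by comparing the combination with SPHINX31 alone, which shares no library with the comparison of indisulam with untreated cells. Here 19 members rose, 11 fell and 18 did not pass. Over all tested genes 23.4% were called higher and 26.5% lower. The median log2 fold change of the members was 0.03, compared with 0.00 over all tested genes. Of the 24 members called with indisulam alone, 23 were called again in the same direction (95.8%, and 76.7% of the 30 called here), and 36.3% of all tested genes were called in the same direction in both comparisons. Over all tested genes 6774 of the 8148 called with indisulam alone were called again (83.1%, and 72.7% of those called here). The exception among the members was DHX40, with an adjusted p of 0.119. The members called only here were DDX46, DDX41, DDX54, DDX51, DDX56, DDX50 and DHX32.

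The log2 fold changes of the 2 comparisons had a Pearson r of 0.97 over the 48 genes and of 0.85 over all tested genes, which are descriptions over genes that are not independent. The same sign was found for 42 of 48 members (87.5%) and for 84.4% of all tested genes. DHX33 had -1.43 (adjusted p = 1.59e-09), DHX9 0.83 (adjusted p = 2.09e-07), DHX15 0.73 (adjusted p = 6.39e-07) and DDX19A 0.78 (adjusted p = 2.41e-06). EIF4A2 had 0.55, DDX52 -0.67, DDX19B -0.63 and DHX35 -0.57. DDX59, which rose with SPHINX31 alone, fell by 0.43 on the log2 scale here (adjusted p = 5.69e-05), from 33.3 and 34.2 CPM to 24.5 and 25.4 CPM. Its rise and this fall use the same SPHINX31 libraries, so they are not independent. Against untreated cells the log2 fold change of DDX59 was -0.17 with the combination and -0.16 with indisulam.

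**Figure D4:**
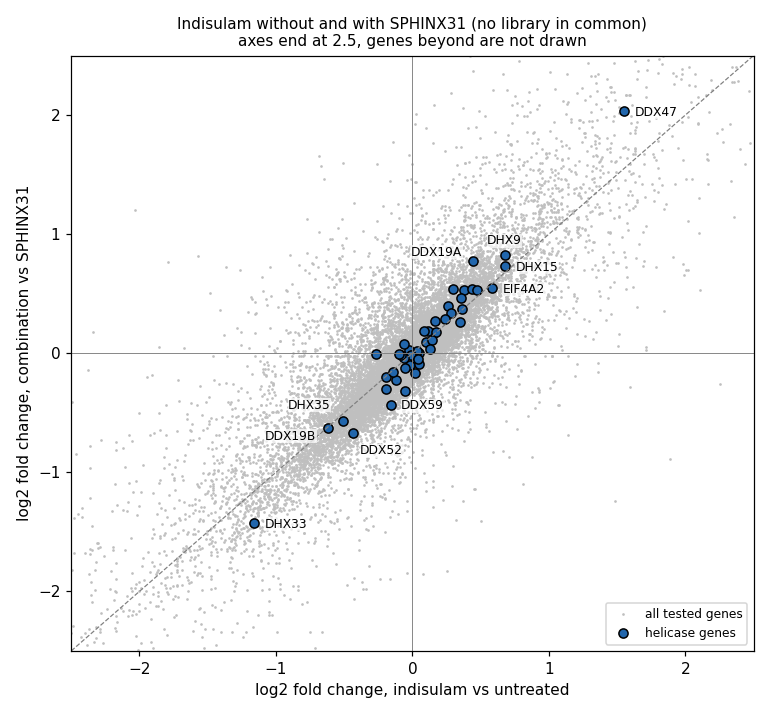
Log2 fold change with indisulam in cells without SPHINX31 (horizontal axis) and with it (vertical axis) for the 48 helicase genes (large points) and all tested genes (small points), with the line of equal change dashed. DHX33 lies at -1.16 and -1.43 and DHX9 at 0.68 and 0.83, and 42 of the 48 members have the same sign on both axes.

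The interaction asks whether the combination departs from the sum of the single treatments on the log2 scale. No member passed by edgeR's quasi-likelihood test or by DESeq2, and 0% of all tested genes passed by edgeR. At an unadjusted p under 0.05 there were 6 members, among 1584 of all tested genes. These were DDX19A (0.34), DDX59 (-0.27), DHX33 (-0.27), DDX50 (-0.26), DDX52 (-0.23) and DHX32 (-0.19), with adjusted p-values from 0.422 to 0.536.

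Partner proteins that switch helicases on or carry them to their RNA were also counted. Of 31 such cofactors, 8 rose, 9 fell and 14 did not pass with indisulam, with a median log2 fold change of 0.05. These shares were close to those over all tested genes, where 20.1% were called higher and 23.5% lower, with a median of -0.00. PATL1, a decapping scaffold that binds DDX6, was at 100 and 96.7 CPM in untreated cells, 176 and 175 with indisulam, 108 and 116 with SPHINX31, and 192 and 199 with the combination. It lay higher in every library with indisulam and rose with indisulam (log2 fold change 0.83, SE 0.0519, adjusted p = 6.35e-08). EIF4B, which stimulates eIF4A, rose by 0.51 (adjusted p = 1.56e-06). THOC5, a subunit of the export complex that works with DDX39B, fell by 0.49 (adjusted p = 1.18e-05), and RBM5, a G-patch splicing factor, fell by 0.41 (adjusted p = 0.00178), on the log2 scale. Of the nuclear pore partners of DDX19, GLE1 and NUP214 fell by 0.25 and 0.41 on the log2 scale, with adjusted p-values of 0.00116 and 0.000199, and NUP42 had 0.06 and did not pass (adjusted p = 0.513).

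Of 18 RNA helicases outside the list, 17 were tested and DHX58 was not. With indisulam 4 fell, 13 did not pass by edgeR's test and none was called higher, with a median log2 fold change of -0.10. An unadjusted p under 0.05 was found for 5 of the 17, compared with 9553 of the 18661 tested genes. The share that fell was 23.5%, the same as over all tested genes. The share called higher was 0%, compared with 20.1% over all tested genes. HELZ was at 47.8 and 52.7 CPM in untreated cells and 37.8 and 33.5 CPM with indisulam (log2 fold change -0.50, SE 0.0814, adjusted p = 0.00028). SKIC2, the helicase that feeds RNA to the cytoplasmic exosome, fell by 0.36 (adjusted p = 0.000862). The others that fell were DDX60L and MOV10. With the combination 2 of the 17 rose and 8 fell, compared with 23.8% higher and 26.3% lower over all tested genes.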

How the data were processed

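RNA of A549 cells was sequenced by the authors from polyadenylated, strand-specific libraries with paired reads of 150 bases. The deposited values are raw counts of reads per Ensembl gene in 8 libraries, with no normalization. The submitters' processing notes name HISAT2 2.2.1, HTSeq and GRCh38. The strand setting, overlap mode and annotation of the counting are not given in the sources used here.

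Groups came from the treatment labels. Gene names, exons and coding sequences came from GENCODE 44 on GRCh38. The test was the quasi-likelihood test of edgeR 4.0.16, run in R 4.3.3 after filterByExpr and TMM scaling (factors of 0.978 to 1.02). One fit covered all 8 libraries and had 4 residual degrees of freedom. P-values were adjusted by Benjamini-Hochberg over 18661 genes, with a threshold of 0.05. Fold changes are those of this fit. CPM was obtained by dividing each count by its TMM-adjusted library size. For the cell type markers, counts were instead divided by the total counts on genes, without TMM factors. A standard error covers counting error and the spread between libraries. Depth was 51727369 to 63186989 counts on genes per library, and 83.0% to 86.0% of recorded reads were on genes. The remaining reads (outside features, ambiguous or not unique) were left out of library sizes and tests. The procedure was also run on simulated counts with far fewer changed genes than were called here, and no result rests on that run. Python 3.11.15 with pandas 2.3.3 was used for summaries.

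Members with values in each library are the 5 highest and 5 lowest called in each comparison, the paralog pairs and DDX23, which falls outside this rule and was chosen after its values were seen. Other genes named are RBM39, SRPK1 and the 2 most changed in each direction of the cofactor and helicase lists, while DDX27, DDX11, DHX32, DDX10, GLE1, NUP214, NUP42, MOV10 and DDX60L were named after their values were seen. The members and lists were chosen with earlier results of these data known. Alternatives were RLE size factors, total counts alone, DESeq2 1.42.0, 2 other filters on low counts, only the groups compared, a GC correction over 50 bins, a replicate block and leaving out each library. A block with exchanged numbers was added after the data were seen. Exon use and splicing need reads and were not analysed here.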

Additional observations from a re-analysis of the deposited data

Results flagged for a closer look

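The share of recorded reads that fell outside annotated features was above the untreated range of 3.94% to 4.34% in both groups with indisulam. It was 4.99% on average with indisulam (4.49% and 5.48% in the libraries) and 5.37% with the combination (4.87% and 5.87%). These reads enter no comparison, and where they lie relative to the helicase genes was not analysed here.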

How the results depend on the processing

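With indisulam the 24 helicase genes called became 22 to 30 under the other settings and 18 to 26 when 1 library was left out. With the combination the 27 called became 26 to 29, and 23 to 28 without 1 library. For the combination against SPHINX31 the 30 called became 29 to 31, and 25 to 31 without 1 library. The interaction had 0 calls throughout. For SPHINX31 the 2 calls became 4 with DESeq2, 9 with the GC correction, 7 with genes kept at 1 count in total, 4 with at least 10 counts in every library, 4 with only the groups compared and 5 with total counts alone. Leaving out 1 library gave 0 to 5. For the combination against indisulam the 3 calls became 0 to 3 without 1 library. The cause of these differences was not tested. With 1 library left out, the lone library of its group is assumed to vary like the others.

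Whether the replicate numbers pair the libraries is not known, since nothing in the labels ties them and only 2 numbers exist. Deviations of same-numbered libraries correlated at -0.396 between untreated and indisulam, -0.355 between indisulam and SPHINX31, and 0.324 between untreated and SPHINX31. Correlations with the combination ran from -0.0217 to 0.147. The replicate block gave 22, 2, 27, 3, 29 and 0 calls for indisulam, SPHINX31, the combination, the combination against indisulam, the combination against SPHINX31 and the interaction. With the indisulam numbers exchanged in the block, SPHINX31 had 8 calls and the combination against indisulam 5.

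Of 595 refits of 35 named values, 569 kept direction and side of the threshold, 26 lost the call and 0 reversed. These values were picked as the largest called changes in each comparison, and some refits left out a library of a group not compared. Calls were therefore likely to be kept, and the count does not describe the other members. The losses among these values touched DDX59 and DHX9 with SPHINX31, DHX29 with indisulam, and DHX33, DDX52 and DHX57 in the combination against indisulam. The indisulam calls of DDX1, DDX6, DDX11, DDX59, DHX36 and DHX40, which also did not hold in all alternatives, are outside the 35 values. Precision was lowest for DDX47 and EIF4A1, which had few counts, for a cause that was not tested.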
